A study of Mus musculus with 16 samples.

Results

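The Fc gamma receptors (FcγR) are the cell surface proteins by which neutrophils bind the constant part of IgG on opsonized microbes and immune complexes. Members were the 5 mouse genes Fcgr1, Fcgr2b, Fcgr3, Fcgr4 and Fcer1g, matched by Ensembl identifier and symbol among the 49315 genes counted in each library, and all 5 were found. Fcgr1, Fcgr3 and Fcgr4 encode activating receptors, Fcgr2b encodes the inhibitory receptor FcγRIIb, and Fcer1g encodes the FcR gamma chain that carries the signal of the activating receptors. RNA was sequenced from neutrophils of WT mice and of αD KO mice, which lack integrin αD (CD11d, the product of Itgad), in a model of polymicrobial sepsis. Cells were sorted as Ly6G+/CD11b+/CD45.2+ from blood and from lung, either from naive mice without surgery (0h) or 12 hours after cecal ligation and puncture (CLP). The labels give male mice of 8 to 12 weeks for the surgery. They name no strain and no restriction of the deletion to a cell type. The 8 groups were WT and αD KO, blood and lung, 0h and 12h, with 3 count files each from 2 labelled samples. Libraries 1a and 1b are the files of sample 1 and library 2 is the file of sample 2.

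An activating receptor binds IgG outside the cell and needs the gamma chain for its surface expression and its signal. Src family kinases phosphorylate the pair of tyrosines in the immunoreceptor tyrosine-based activation motif (ITAM) of the gamma chain, Syk docks there, and phagocytosis, degranulation and the oxidative burst follow. FcγRIIb carries an inhibitory motif (ITIM) in its own tail, which recruits the phosphatase SHIP-1 when it is crosslinked with an activating receptor, so the balance of the receptor types sets the threshold for a response to immune complexes. Fcgr1 encodes the receptor of high affinity for monomeric IgG, Fcgr3 a receptor of low affinity for complexes, and Fcgr4 a receptor that prefers IgG2 subclasses.

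Opposite signalling by the receptor types rests on short motifs, and the coding DNA of both is shown because the comparison of activating with inhibitory receptors turns on it. The stretches were read from GRCm38 transcripts, 5′ to 3′ on the coding strand, with the codons of the motif tyrosines in capitals. The ITAM of Fcer1g covers residues 65 to 79 of 86 and its 45 bases cross an intron within chr1:171229889-171230072, minus strand. The ITIM of Fcgr2b covers residues 317 to 322 of 340 at chr1:170961071-170961088, minus strand.
Fcer1g ITAM: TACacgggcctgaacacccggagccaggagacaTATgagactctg
Fcgr2b ITIM: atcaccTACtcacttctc
Among the 5 proteins, the spacing of the ITAM was found in Fcer1g alone, whereas the looser ITIM spelling also occurred 3 times in Fcgr1 and 1 time each in Fcgr4 and Fcer1g, which does not make these working motifs.

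Of the genes, 4 lie in the same stretch of chromosome 1, in the order Fcgr2b (ENSMUSG00000026656, 170958617 to 170976547, minus strand), Fcgr4 (ENSMUSG00000059089, 171018920 to 171029761, plus strand), Fcgr3 (ENSMUSG00000059498, 171051174 to 171064935, minus strand) and Fcer1g (ENSMUSG00000058715, 171229572 to 171234365, minus strand). Fcgr1 (ENSMUSG00000015947) lies on chromosome 3 from 96282909 to 96293969, minus strand. All are protein coding, positions are on GRCm38, and the values are counts over all exons of a gene. The coding sequences of Fcgr2b and Fcgr3 were 86.7% identical over 782 aligned bases, with a longest identical run of 129 bases in their transcripts, and the other receptor pairs were 64.1% to 68.6% identical with runs of at most 14 bases. Since the authors counted uniquely mapped reads, reads inside the shared stretches of Fcgr2b and Fcgr3 could be lost or split, and their levels carry that uncertainty. Genes that overlap a member held few counts over all 24 libraries, with 64 for Gm38204 on the strand opposite to Fcgr2b against 42251 for Fcgr2b, 16 for Mir6546 against 572860 for Fcgr3, and 74 for Gm26110 against 89596 for Fcgr4. The counting strand is not given in the sources used here.

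The bases before the start sites are shown for Fcgr2b, Fcgr3 and Fcgr4, neighbours on chromosome 1 of which edgeR called Fcgr2b after CLP. These are the 250 bases upstream of the RefSeq start (GRCm38.p6), 5′ to 3′ on the gene's strand, with the PU.1 core GAGGAA (either strand) in capitals. The Fcgr2b window lies at chr1:170976072-170976321 (minus), that of Fcgr3 at chr1:171059404-171059653 (minus) and that of Fcgr4 at chr1:171018676-171018925 (plus). By the gene spans above, the Fcgr2b and Fcgr3 windows lie inside the annotated genes, downstream of their outermost start. A second RefSeq start of Fcgr3, with its window at chr1:171059395-171059644, is not shown.
Fcgr2b upstream: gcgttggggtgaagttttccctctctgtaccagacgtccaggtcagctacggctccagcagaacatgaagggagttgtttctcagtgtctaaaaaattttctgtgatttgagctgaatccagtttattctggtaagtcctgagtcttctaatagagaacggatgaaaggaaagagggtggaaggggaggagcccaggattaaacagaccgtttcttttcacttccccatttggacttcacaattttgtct
Fcgr3 upstream: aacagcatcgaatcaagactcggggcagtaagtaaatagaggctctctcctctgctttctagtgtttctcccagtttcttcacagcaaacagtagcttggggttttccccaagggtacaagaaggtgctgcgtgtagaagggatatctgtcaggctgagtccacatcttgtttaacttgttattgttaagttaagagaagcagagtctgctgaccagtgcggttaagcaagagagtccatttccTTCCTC
Fcgr4 upstream: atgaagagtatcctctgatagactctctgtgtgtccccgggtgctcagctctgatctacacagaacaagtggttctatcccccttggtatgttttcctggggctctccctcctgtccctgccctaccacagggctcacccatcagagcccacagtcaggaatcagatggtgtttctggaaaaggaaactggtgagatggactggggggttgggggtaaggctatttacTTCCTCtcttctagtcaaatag
In windows of 300 bases that also hold 50 bases after the start, GAGGAA was present in Fcgr3, Fcgr4 and Fcgr1, and absent from Fcgr2b and Fcer1g. It was present in 28.3% of 27025 promoters. The C/EBP-type site TTGCNNAA was found in Fcgr3 (10.8% of promoters) and an ISRE-type interferon site in Fcgr4 (3.49%), each 1 time and in no other member. A match is a spelling and was not tested as a binding site.

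Total counts were 5753476 to 29984954 per library (median 18741144), with library 1b the lowest of its group in all 8 groups. Libraries 1b had counts in 29162 to 38844 genes and the other 16 libraries in 17132 to 32666. The chi-square between libraries 1a and 1b, divided by its degrees of freedom, was 63.5 to 328.5 where repeat files of 1 library should stay under 1.2, so each file was taken as a library. Whether they came from separate animals is not given, so p-values measure only the spread between libraries. Itgad went against the labels, with 0.0522 to 4.08 CPM (median 1.19) in the 12 libraries labelled WT and 12.6 to 96.1 CPM (median 51.4) in the 12 labelled KO. Since exons were not counted separately, RNA from a targeted allele and intact RNA cannot be told apart, and groups are called WT-labelled and KO-labelled below, or WT and KO for short. In KO lung, 3 libraries went against their time labels in Lcn2, a neutrophil granule gene that separated the times in all other libraries. KO lung 0h library 2 had 18810 CPM of Lcn2 where the other 0h libraries reached at most 1729 CPM, and KO lung 12h libraries 1a and 2 had 1058 and 2754 CPM where the other 12h libraries had at least 14350 CPM. These are called the 3 doubted libraries, and results are given with and without them. Neutrophil markers were high in every library (37320 to 317800 summed CPM over 12 genes). Summed markers of B cells went from a median of 501 CPM at 0h to 57.0 CPM at 12h. Those of monocytes and macrophages went from 821 to 834 CPM, a sum whose genes did not move together. Of these, edgeR called 1 of 11 tested higher and 2 lower in WT blood, and 2 of 10 higher and 2 lower in WT lung. In KO blood it called 0 of 12 higher and 4 lower, where 3.75% of all genes were called higher and 4.99% lower. The neutrophil sum itself went from a median of 50200 to 192600 CPM with time, with 6 of its 12 genes called higher and 1, Csf3r, lower by edgeR both in WT blood and in WT lung (7.75% and 5.24% of all genes were called higher, and 5.75% and 3.78% lower). Eosinophil markers went from 65.5 to 8.24 CPM and dendritic cell markers from 21.6 to 6.20 CPM. Bulk values cannot tell fewer cells of a type from less RNA per cell, and the part of admixed cells in the results was not tested.

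Levels between genes were compared as CPM (counts divided by library totals that carry edgeR's TMM factors) per kilobase of exon. Fcer1g was the most abundant member, with a median over the 24 libraries of 1690 CPM per kilobase (789 to 4167), at the 99.9th percentile of 27145 genes. Fcgr3 followed at 683 CPM per kilobase (259 to 1368), then Fcgr4 at 139 (81.0 to 326) and Fcgr2b at 11.3 (3.40 to 46.7). Fcgr1 stood at 0.406 CPM per kilobase (0.0440 to 5.20), the 55.4th percentile, and rested on 1161 counts over all libraries, from 1 to 373 in each. The ranges of Fcer1g, Fcgr3 and Fcgr4 lay above those of Fcgr2b and Fcgr1 in these libraries, so that per kilobase the receptor RNA of these cells was mostly Fcgr3, then Fcgr4. Library 1b was the lowest of its group for Fcgr3 in 8 of 8 groups, for Fcgr2b in 7, for Fcgr1 and Fcer1g in 6 and for Fcgr4 in 5.

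**Figure D1:**
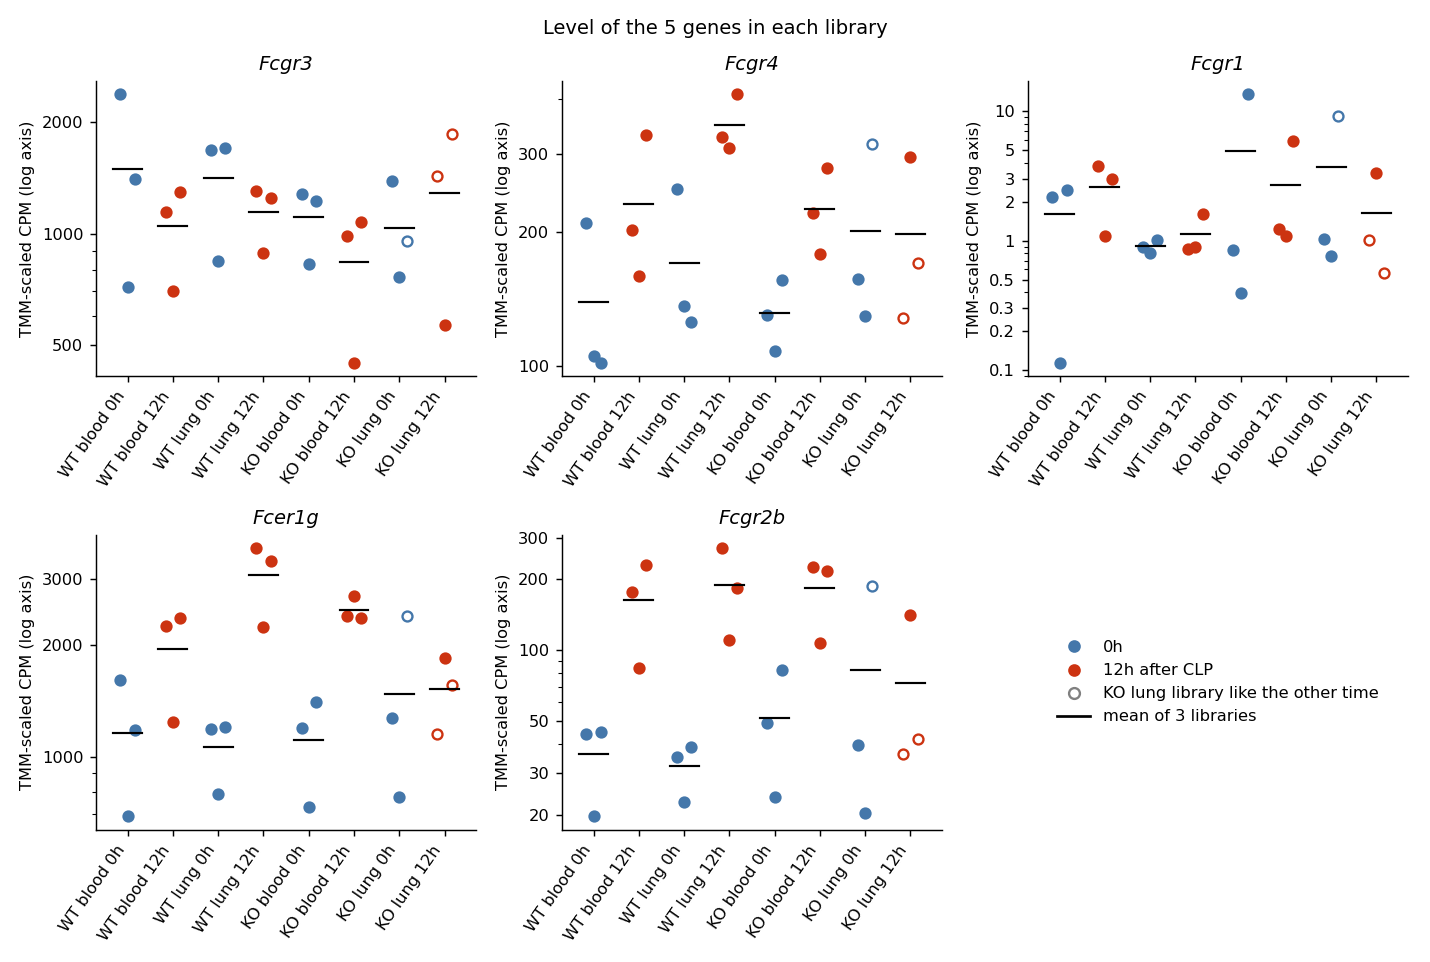
Level of each member in the 24 libraries, as TMM CPM on a log axis, by labelled group with a line at the group mean, 1 point per library and open points for the 3 doubted libraries. Fcgr2b sat at 19.7 to 45.1 CPM in the WT 0h groups and at 84.3 to 271 CPM in the WT 12h groups, while Fcgr3 overlapped between times in every tissue and genotype.

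By edgeR, the inhibitory receptor gene Fcgr2b was the member called higher after CLP in WT blood and in WT lung. In WT blood, libraries 1a, 1b and 2 had 43.9, 19.7 and 45.1 CPM at 0h and 176, 84.3 and 230 CPM at 12h. In WT lung, they had 35.3, 22.7 and 39.0 CPM at 0h and 271, 111 and 184 CPM at 12h. The times did not overlap in either tissue, as was so for 21.7% of 27145 genes in WT blood and 18.6% in WT lung. By the quasi-likelihood test of edgeR across all genes, with Benjamini-Hochberg adjustment over all genes tested, the log2 fold change was 2.10 (standard error 0.481, adjusted p = 0.0279) in WT blood and 2.53 (standard error 0.423, adjusted p = 0.0151) in WT lung. Means went from 36.2 ± 14.3 to 163 ± 73.6 CPM in WT blood and from 32.3 ± 8.49 to 188 ± 80.0 CPM in WT lung (SD, n = 3). A gene was called where its adjusted p was under 0.05 and its log2 fold change beyond 1 in either direction. Of the 5 members 1 was called in each of these comparisons, where 13.5% of all genes tested were called in WT blood and 9.02% in WT lung. Each call was lost without any of 4 libraries. Leaving out WT blood 0h library 1a or 2, or 12h library 1a or 2, gave edgeR adjusted p = 0.208, 0.185, 0.309 and 0.373, with log2 fold changes from 1.78 to 2.43 over all leave-outs. In WT lung the same libraries gave edgeR adjusted p = 0.241, 0.238, 0.146 and 0.137 with log2 fold changes from 2.01 to 2.74. With these libraries left out, 2 to 150 genes in all were called in WT blood and 0 to 27 in WT lung. An exact permutation test of 3 against 3 libraries cannot give a p below 0.1.

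In KO blood the fitted change of Fcgr2b was also positive and just missed the threshold. Fcgr2b was 48.8, 23.7 and 82.3 CPM at 0h and 224, 108 and 217 CPM at 12h, again with no overlap (19.8% of genes). The log2 fold change was 1.79 (standard error 0.468) with an edgeR adjusted p = 0.0508, so that 0 of 5 members were called where 8.75% of genes were. At an unadjusted p under 0.05 stood 3 of the 5, Fcgr2b, Fcgr4 and Fcer1g, as did 27.8% of all genes tested. The DESeq2 Wald test on the same libraries called Fcgr2b (1.84, adjusted p = 0.0021) and Fcer1g (1.19, adjusted p = 0.00418), where it called 17.6% of all genes. The highest 0h value, library 2, was also the library with the highest summed markers of B cells (1317 CPM), NK and T cells (459 CPM), platelets (695 CPM) and monocytes and macrophages (2165 CPM) among the 0h libraries. Without it the log2 fold change was 2.36 (edgeR adjusted p = 0.0545), and without 12h library 1b it was 2.12 and called (edgeR adjusted p = 0.0351, with 8.74% of all genes called). The part of those cells in its value was not tested. Whether the change in KO blood differs from that in WT blood was tested as an interaction term, which was −0.20 for Fcgr2b (edgeR adjusted p = 1). In that test edgeR called 0 of 19792 genes (0%), 232 genes had an unadjusted p under 0.05 and DESeq2 called 1.

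In KO lung the labelled times overlapped. Fcgr2b was 39.5, 20.4 and 187 CPM at 0h and 36.3, 140 and 41.8 CPM at 12h. The values of 187, 36.3 and 41.8 CPM belong to the 3 doubted libraries, each of which lay nearer to the other time's libraries than to its own. The log2 fold change was −0.16 (standard error 0.893, edgeR adjusted p = 1), and 0% of genes were called by edgeR (72 genes had an unadjusted p under 0.05), and 0 were called by DESeq2. Without the 3 doubted libraries, 2 libraries at 0h and 1 at 12h were left, and no other group entered the fit. The log2 fold change of Fcgr2b was then 2.07, and 1 library cannot measure the spread at 12h.

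Over all 24 libraries, with genotype and tissue in the model, Fcgr2b rose by a log2 fold change of 1.72 (standard error 0.442, edgeR adjusted p = 0.0201), the member called where 5.71% of genes were. Without the 3 doubted libraries the value was 2.27 (standard error 0.317). These libraries stand apart in Fcgr2b itself, so values without them are a description and add no support to its change. With the 2 files of sample 1 summed, so that each labelled sample counts once, no member was called (Fcgr2b 1.57, edgeR adjusted p = 0.0971) and 8 genes were called in place of 1550. The call was lost without KO blood 0h library 1b (adjusted p = 0.0588), KO blood 12h library 1a (0.0593) or WT lung 12h library 1a (0.0548).

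The gamma chain gene Fcer1g had positive fitted changes that were smaller than those of Fcgr2b in WT blood, WT lung and KO blood, a difference that was not tested. In WT lung it was 1187, 791 and 1198 CPM at 0h and 3642, 2234 and 3364 CPM at 12h. KO blood had 1191, 730 and 1401 CPM at 0h and 2394, 2703 and 2360 CPM at 12h. The times did not overlap in these groups, as was so for 18.6% and 19.8% of all genes, and the log2 fold changes were 1.53 (standard error 0.423, edgeR adjusted p = 0.0604) and 1.13 (standard error 0.306, edgeR adjusted p = 0.0563), neither past the threshold. In WT blood, with 1612, 689 and 1180 CPM at 0h and 2248, 1239 and 2367 CPM at 12h, the times overlapped and the log2 fold change was 0.69 (edgeR adjusted p = 0.37). In KO lung, 0h library 2 had 2384 CPM beside 1269 and 778 CPM, and the 12h libraries had 1151, 1844 and 1554 CPM (log2 fold change 0.06). DESeq2 called Fcer1g in WT lung (1.52, adjusted p = 0.000148), where it called 18.9% of all genes, as did edgeR without 12h library 1b (1.58, adjusted p = 0.00682), where 25.3% were called. Over all libraries Fcer1g had a log2 fold change of 0.98 (standard error 0.278, edgeR adjusted p = 0.0307), under the fold limit of the call. Without the 3 doubted libraries it was 1.23, a description only, since Fcer1g followed Fcgr2b over the libraries (r = 0.926).

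Among the activating receptors, Fcgr4 had values above its 0h libraries in WT lung and KO blood. WT lung was at 250, 137 and 126 CPM at 0h and 328, 311 and 409 CPM at 12h. KO blood was at 131, 108 and 156 CPM at 0h and 221, 179 and 279 CPM at 12h. Neither pair overlapped, as was so for 18.6% and 19.8% of all genes. The log2 fold changes were 1.02 (standard error 0.391, edgeR adjusted p = 0.142) and 0.73 (standard error 0.276, edgeR adjusted p = 0.133). The DESeq2 Wald test called Fcgr4 in WT lung (1.01, adjusted p = 0.039), where it called 18.9% of all genes. WT blood overlapped, at 210, 105 and 102 CPM at 0h and 203, 160 and 332 CPM at 12h, as did KO lung, at 157, 130 and 316 CPM at 0h and 128, 295 and 170 CPM at 12h. Over all libraries the value was 0.71 (standard error 0.245, edgeR adjusted p = 0.0724).

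Fcgr3, the most abundant receptor, did not pass the test in any comparison. WT blood had 2375, 719 and 1402 CPM at 0h and 1146, 703 and 1296 CPM at 12h. WT lung had 1684, 847 and 1701 CPM at 0h and 1305, 887 and 1250 CPM at 12h. KO blood had 1279, 829 and 1226 CPM at 0h and 989, 449 and 1078 CPM at 12h. The log2 fold changes were −0.58, −0.32 and −0.45 with standard errors of 0.512, 0.433 and 0.375, so that their direction was within the error, and the libraries overlapped. KO lung, at 1388, 766 and 958 CPM at 0h and 1436, 568 and 1858 CPM at 12h, had a log2 fold change of 0.33, which became −1.08 without the 3 doubted libraries. The average over all libraries was −0.12 (standard error 0.277).

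Fcgr1 rested on few counts. Its levels were 0.114 to 3.76 CPM in WT blood and 0.804 to 1.62 CPM in WT lung over both times. The highest value, 13.5 CPM, was KO blood 0h library 2, the library named above for its markers of other cells, followed by KO lung 0h library 2 at 9.25 CPM and KO blood 12h library 2 at 5.83 CPM. The remaining KO libraries had 0.397 to 3.33 CPM. Time comparisons had log2 fold changes of 0.61 in WT blood, 0.30 in WT lung, −0.87 in KO blood and −1.18 in KO lung. The standard errors were 0.994, 0.611, 1.24 and 1.16, and none passed the test in these 4 comparisons. In WT lung the sign turned with scaling by library totals (−0.29). Over the alternatives it also turned in KO blood (−2.09 to 2.13) and KO lung (−2.23 to 1.75), and not in WT blood (0.08 to 1.14).

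**Figure D2:**
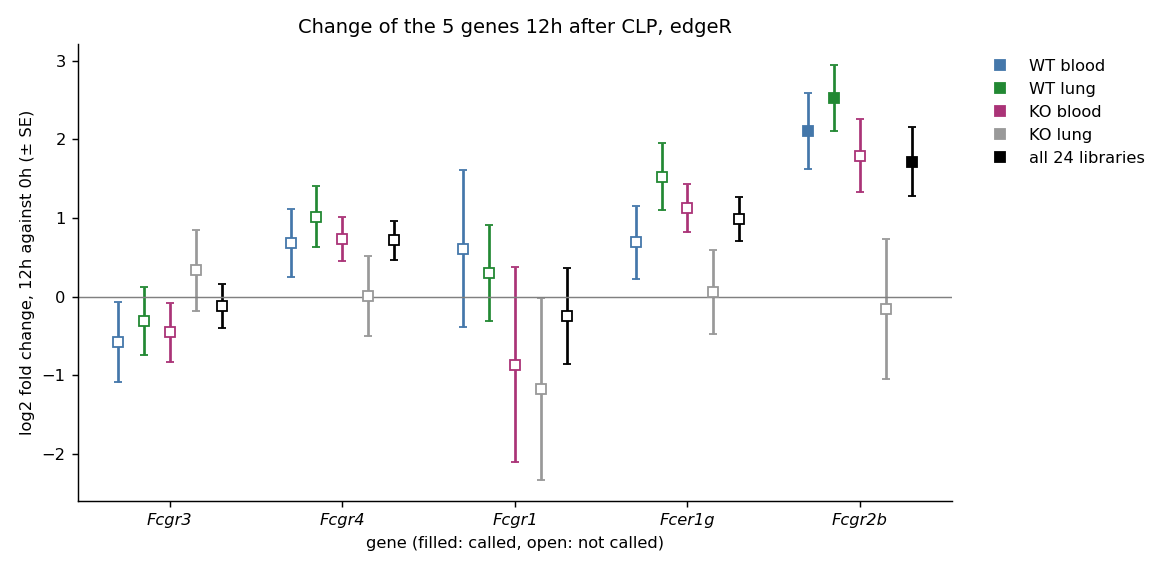
Fitted log2 fold change, 12h against 0h, of each member in the 4 pairs of groups and over all libraries, with standard errors from edgeR as bars and filled squares for called changes. Fcgr2b lies between 1.79 and 2.53 in WT blood, WT lung and KO blood and at −0.16 in KO lung, and Fcgr3 lies between −0.58 and 0.33.

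The order of the groups by mean level differed between members. WT lung 12h was highest for Fcgr2b (188 CPM), Fcgr4 and Fcer1g, KO blood 0h for Fcgr1, and WT blood 0h for Fcgr3. Neighbouring groups in the order overlapped for every member, and the gap between neighbouring means stayed below the larger SD except between WT lung 12h and the next group for Fcgr4.

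The question of activating against inhibitory receptors was addressed by ratios within a library, which do not depend on library scaling. Each ratio was formed from counts (with 0.5 added) per kilobase of exon and is given without a p-value. Fcgr3 to Fcgr2b was 180, 121 and 104 in the WT blood 0h libraries and 21.8, 27.8 and 18.8 at 12h. In WT lung it was 159, 124 and 146 at 0h and 16.1, 26.7 and 22.7 at 12h. In KO blood it was 87.4, 116 and 49.7 at 0h and 14.7, 13.9 and 16.6 at 12h. The times stood apart in all 3, by −2.55, −2.74 and −2.41 on the log2 scale (12h minus 0h). In KO lung the ratio was 117, 125 and 17.1 at 0h and 132, 13.5 and 148 at 12h, a difference of 0.02. Each of the 3 doubted libraries again had the value of the other time. Leaving them out gave −3.17 in KO lung, with 1 library at 12h, and over all groups 49.7 to 180 in 11 libraries at 0h and 13.5 to 27.8 in 10 libraries at 12h. With all libraries the ranges were 17.1 to 180 and 13.5 to 148.

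**Figure D3:**
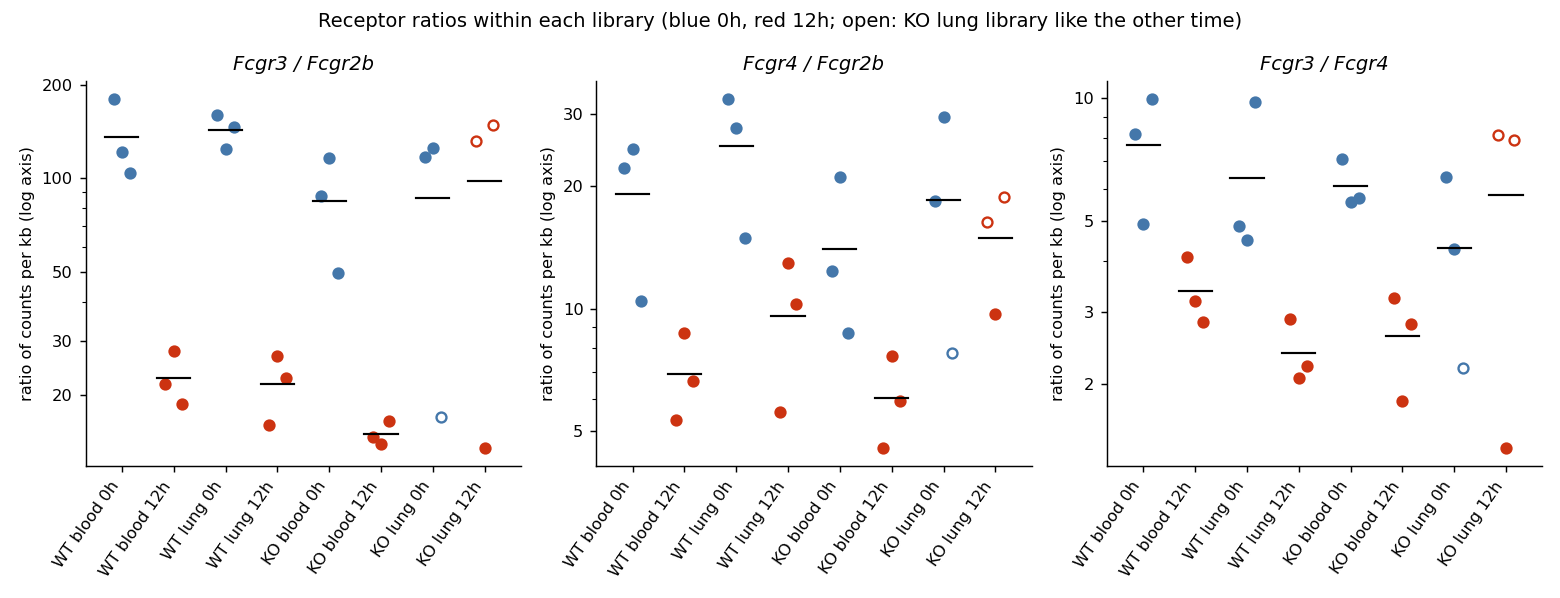
Ratios of Fcgr3 to Fcgr2b, Fcgr4 to Fcgr2b and Fcgr3 to Fcgr4, from counts per kilobase of exon, on log axes by labelled group, with 1 point per library, a line at the mean and open points for the 3 doubted libraries. For Fcgr3 to Fcgr2b, libraries at 0h lie at 49.7 to 180 and at 12h at 13.5 to 27.8, apart from the 3 doubted KO lung libraries at 17.1, 132 and 148.

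Fcgr2b made up 0.491% to 1.67% of the summed RNA of the 4 receptors per kilobase at 0h and 2.46% to 4.93% at 12h without the 3 doubted libraries (with them, 0.491% to 3.85% and 0.595% to 4.93%). The sum of the activating receptors to Fcgr2b differed between the times by −2.35 in WT blood, −2.46 in WT lung, −2.14 in KO blood and 0.05 in KO lung on the log2 scale. Fcgr4 to Fcgr2b differed less, by −1.40, −1.39, −1.15 and −0.17 in the same order, with times apart except in KO lung. Fcgr1 to Fcgr2b differed by −0.89, −2.22, −1.69 and −0.81, with times apart only in WT lung. The balance within the activating receptors differed between the times too. Fcgr3 to Fcgr4 differed by −1.15, −1.34 and −1.26 in WT blood, WT lung and KO blood, with times apart, and by 0.19 in KO lung. The gamma chain per activating receptor, Fcer1g to the activating sum, differed by 0.98, 1.50 and 1.43, with times apart, and by −0.05 in KO lung. Without the 3 doubted libraries, that ratio was 1.16 to 1.92 at 0h and 2.66 to 7.71 at 12h, and with them 1.16 to 3.38 and 1.42 to 7.71.

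**Figure D4:**
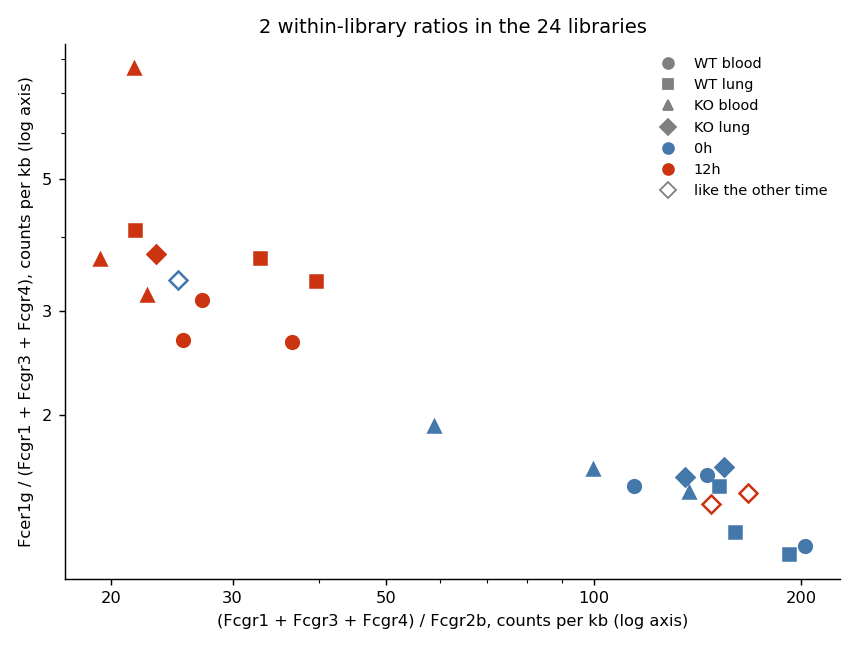
The activating sum (Fcgr1, Fcgr3 and Fcgr4) to Fcgr2b (horizontal) and Fcer1g to the activating sum (vertical), both from counts per kilobase of exon on log axes, with 1 point per library. Without the 3 doubted libraries, the horizontal ratio was 58.8 to 202.5 at 0h and 19.3 to 39.6 at 12h, where the vertical ratio was higher, and the 3 doubted KO lung libraries lie with the other time.

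Genotype was compared at each tissue and time. No member was called in any of the 4 comparisons of KO-labelled with WT-labelled libraries, whose log2 fold changes over the 5 members ran from −1.32 to 1.97. In blood at 0h, 0.0115% of all genes were called by edgeR, and in blood at 12h, lung at 0h and lung at 12h 0%, with 505, 340 and 1390 genes at an unadjusted p under 0.05 and 16, 6 and 192 called by DESeq2. The value of 1.97 was that of Fcgr1 in lung at 0h (unadjusted p = 0.0966 in edgeR's fit, adjusted p = 0.983). Groups without overlap were found in lung at 12h, where the KO libraries of Fcer1g (1151, 1844 and 1554 CPM) and of Fcgr4 (128, 295 and 170 CPM) all lay below the WT libraries. Of 27145 genes, 8.94% had no overlap in that comparison (3.96% with KO below), and 2 of its 3 KO libraries are doubted. The log2 fold changes of Fcer1g and Fcgr4 were −0.93 (standard error 0.448, edgeR adjusted p = 0.612) and −0.73 (standard error 0.414, edgeR adjusted p = 0.653), and Fcgr2b had −1.32 (standard error 0.605, edgeR adjusted p = 0.609). All 3 shrank without the doubted libraries, to −0.78, −0.27 and −0.47. The test of the genotype difference in the lung time change had an unadjusted p = 0.0244 for Fcgr2b (−2.71, standard error 1.05) and 0.0483 for Fcer1g (−1.44, standard error 0.656) in edgeR's fit of all genes, with adjusted p = 0.411 and 0.473. It called 0 of 23211 genes (0%), with 2432 at an unadjusted p under 0.05 and 350 called by DESeq2. Without the doubted libraries these terms were −0.34 and −0.72. In blood at 12h the Fcgr3 to Fcgr2b ratios of the KO libraries (13.9 to 16.6) lay below those of WT (18.8 to 27.8), a log2 difference of −0.58. With overlapping libraries, the same difference was −0.72 in blood at 0h, −1.17 in lung at 0h (−0.23 without the doubted library) and 1.59 in lung at 12h, where the sign turned without the doubted libraries (−0.66, with 1 KO library left). The activating sum to Fcgr2b in blood at 12h differed by −0.48 and Fcer1g to the activating sum there by 0.67, both without overlap. In lung, Fcer1g to the activating sum differed by 0.65 at 0h (0.29 without the doubted library) and Fcgr1 to Fcgr2b by 1.76 at 12h (1.94 without those in doubt). These ratios share genes and have no counterpart over all genes, so their separation is a description. Over all 24 libraries 0 of 5 members were called for genotype, where 0.0442% of genes were.

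Tissue gave no called member either. Log2 fold changes of lung against blood ran from −1.33 to 0.67 over the 5 members and 4 comparisons. edgeR called 0% of genes in WT at 0h (406 at an unadjusted p under 0.05, 47 called by DESeq2) and 0% in KO at 0h (553 and 108), 0.0442% in WT at 12h and 0.0548% in KO at 12h, where DESeq2 called 1125 and 1494 genes and none of the members. In KO at 12h, all 3 lung libraries of Fcer1g lay below the blood libraries, as did those of 8.01% of genes (log2 fold change −0.72, edgeR adjusted p = 0.288, and −0.77 without the doubted libraries). Fcgr2b was −1.33 there (edgeR adjusted p = 0.226), and −0.74 without them, while without KO lung 12h library 1b alone it was −2.26 and called (edgeR adjusted p = 0.0175, with 11.2% of all genes called). The tissue difference in the time change called 0% of genes in WT (1290 at an unadjusted p under 0.05, 107 by DESeq2) and 0% in KO (2352 and 289), members included. Between tissues (lung minus blood), the log2 ratios of KO at 12h differed by 1.28 for Fcgr4 to Fcgr2b and 1.98 for the activating sum to Fcgr2b, values that rest on the doubted libraries and were 0.72 and 0.14 with the 1 lung library left without them. In WT at 12h the differences were −1.31 for Fcgr1 to Fcgr2b and 0.40 for Fcer1g to the activating sum, likewise as a description. Over all libraries, 0 of 5 members were called for tissue where 1.09% of genes were.

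Genes around the receptors were taken as 6 lists of other Fc receptors, signalling below the ITAM, inhibitory signalling, other partners of the gamma chain, other ITAM adaptors and known regulators of FcγR expression. Called after CLP were 10 of 80 tested in WT blood (3 higher, 7 lower, 12.5%), 14 of 77 in WT lung (6 higher, 8 lower, 18.2%), 15 of 76 in KO blood (3 higher, 12 lower, 19.7%), 0 of 80 in KO lung and 10 of 82 over all libraries (4 higher, 6 lower, 12.2%). Over all genes the shares called were 13.5%, 9.02%, 8.75%, 0% and 5.71%, so the list share in WT blood was below that of all genes, and nothing is read from these shares about the lists. Median log2 fold changes of these genes were −0.32, −0.03, −0.50, 0.23 and −0.06, against −0.15, 0.03, −0.14, −0.05 and −0.50 over all genes tested. In the genotype, tissue and difference tests none was called.

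Of the 15 genes tested for inhibitory signalling, edgeR called 2 higher and 1 lower in WT blood, 2 higher and 0 lower in WT lung, and 0 higher and 2 lower in KO blood (over all genes 13.5%, 9.02% and 8.75% were called). Ptpn11, the tyrosine phosphatase SHP-2, rose in WT blood (1.33) and WT lung (1.57). Dok2, an adaptor that recruits a Ras GTPase activator, rose in WT blood (3.22), WT lung (3.54) and over all libraries (1.91). Cd300a, an inhibitory receptor with ITIMs, fell by 1.68 in WT blood and was also called lower in KO blood, and Dok1, an adaptor of the same family as Dok2, fell by 1.86 in KO blood. All are log2 fold changes at an adjusted p under 0.05 in edgeR's test.

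Among partners of the gamma chain other than the FcγR, called genes lower at 12h included 2 CD300 family receptors. Cd300ld, which encodes a receptor that signals through it, fell by 2.80 in WT blood, 2.31 in WT lung and 3.09 in KO blood on the log2 scale, and Cd300lb fell by 2.58, 2.02 and 2.72. Clec4n, the C-type lectin receptor dectin-2, fell by 2.51 in WT blood. Of the 7 tested in each, 3, 2 and 4 were called lower, where 5.75%, 3.78% and 4.99% of all genes were, and Clec4e, the C-type lectin Mincle, rose in KO blood (1.29). The list's median was −2.24, 0.13 and −2.15, against −0.15, 0.03 and −0.14 over all genes tested. Gp6, a platelet collagen receptor, fell by 4.36 in KO blood, where the platelet marker sum was 591, 31.6 and 695 CPM in 0h libraries 1a, 1b and 2.

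Called receptors for other antibody classes were lower at 12h as well. Fcer2a, the low-affinity IgE receptor of B cells, fell by 3.48 in WT lung and fell by 6.30 in KO blood, and Fcmr, the IgM receptor, fell by 4.01 in WT lung and fell by 5.48 in KO blood. Fcrl1, a B cell protein of the Fc receptor family, fell by 2.20 in WT blood and was also called lower in WT lung and KO blood. Of the other Fc receptors tested, 1 of 10 were called lower in WT blood, 3 of 7 in WT lung and 3 of 7 in KO blood. Cd79b, a chain of the B cell receptor, fell by 3.05 in WT lung. Of the B cell markers 1 of 10 fell in WT blood, 4 in WT lung and 3 in KO blood. For both lists, 5.75%, 3.78% and 4.99% of all genes were called lower in these comparisons. The part of B cell RNA in these values was not tested.

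Of the 19 known regulators of FcγR expression, edgeR called 0 higher and 2 lower in WT blood, 3 higher and 2 lower in WT lung, and 1 higher and 2 lower in KO blood, where 7.75%, 5.24% and 3.75% of all genes were called higher and 5.75%, 3.78% and 4.99% lower. Il4ra, the IL-4 receptor chain, rose in WT lung (2.13), KO blood (1.58) and over all libraries (1.56), Il10ra, an IL-10 receptor chain, rose in WT lung (3.07), and so did Cebpa, a myeloid transcription factor (2.14). Csf3r, the G-CSF receptor, fell by 2.58 in WT blood, 1.81 in WT lung and 2.37 in KO blood and by 1.38 over all libraries. Irf1, an interferon-induced transcription factor, fell by 1.78 in WT blood, and Tgfbr1, a TGF-beta receptor, fell by 1.43 in KO blood.

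Genes with a pattern most like each member were found by Pearson's r of log2 CPM over the 24 libraries among 6695 genes. The libraries share 2 times, 2 tissues and their scaling, so r is a description. Fcgr2b was nearest to Adss (r = 0.975), Orm1 (0.973) and Aoah (0.971). Fcer1g was nearest to Prdx5 (0.973), Ptpn1 (0.965) and Cfl1 (0.956). The receptor Fcgr3 was nearest to Prr14 (0.905), Tpp1 (0.902) and Ensa (0.886), Fcgr4 to Sppl2a (0.877), Selp (0.871) and Ikbke (0.868), and Fcgr1 to Eif3e (0.793), Hnrnpa1 (0.753) and Rpl7a (0.741). Among members, Fcgr2b and Fcer1g had r = 0.926, Fcgr4 and Fcer1g 0.842 and Fcgr2b and Fcgr4 0.808, while Fcgr3 had −0.098 with Fcgr2b and 0.039 with Fcer1g.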

How the data were processed

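RNA of sorted neutrophils was amplified with SMART-Seq v4, made into Nextera XT libraries and sequenced as paired-end reads. Per the paper's methods and the submitters' processing notes, reads were trimmed with Trimmomatic 0.36 and mapped with STAR 2.5.2b to GRCm38 (mm10), and uniquely mapped exonic reads were summed. The authors deposited raw counts per gene for 49315 genes, neither normalized nor filtered.

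The 24 count files form 8 labelled groups of 3 and were tested as deposited with edgeR 4.0.16 (TMM, filterByExpr, quasi-likelihood F test, two-sided) in R 4.3.3 with limma 3.58.1, on the libraries of the groups compared, with the study's limits (Benjamini-Hochberg adjusted p below 0.05, log2 fold change beyond 1 in either direction). Interaction terms used the adjusted p alone. The model over all 24 libraries had genotype, tissue and time as terms. Python 3.11.15 (pandas 2.3.3, numpy 2.4.6, scipy 1.17.1, matplotlib 3.10.9) made tables and figures. The code was tested on simulated counts. The alternatives were RLE scaling, genes unfiltered, a minimum of 10 counts in each library, the DESeq2 1.42.0 Wald test, 1 fit of all 8 groups, sample 1 as the sum of its files, the library number as a block, each library left out, the adjusted p alone and leaving out the 3 doubted libraries. Scaling by library totals alone, another gene length and the ratios without the doubted libraries were added after seeing the data.

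Libraries of the same number deviated together, with every correlation above 0.1, in WT blood and KO lung over time, in KO against WT blood at 0h, and in lung against blood in WT at 0h and 12h and KO at 12h (for example 0.453, 0.585 and 0.164 in WT blood). The pairing comes from the numbers in the titles, which state no shared animal or day, and the main tests use none. Named were the 5 members, Itgad, the called genes of the pathway lists (at most 10, or the 3 largest in each direction), and the 3 genes nearest to each member, and genes of the lists beyond these were not named. Some items are not reported here. The members and lists were chosen with earlier results of these data known. Positions and symbols were taken from a GRCm38 annotation, in which 44823 genes have the coordinates of the count files, and promoter sequences from RefSeq. Of the list genes Pira1, Pira6, Pira11 and Lilrb4a had no matching row. Intervals for counts were not needed, and the reads carry no molecular identifiers.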

Additional observations from a re-analysis of the deposited data

How the results depend on the processing

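Fcgr2b was called in WT blood under 7 of 9 alternatives that kept all libraries and in WT lung under 8 of 9 (log2 fold changes 1.74 to 2.64), the exceptions being no filter in WT blood (0 members called, adjusted p = 0.0652 by edgeR) and the single edgeR fit of all 8 groups (0 called in WT blood, 0 in WT lung, adjusted p = 0.0966 and 0.0759). In WT lung, 2 members were called at a minimum of 10 counts and 2 with the files of sample 1 summed (Fcer1g added), and 3 by DESeq2, where 15.5%, 12.3% and 18.9% of all genes were called. In KO blood, Fcgr2b was called under 5 of 9 alternatives and not with the files summed, in the fit of all groups, by the adjusted p alone or by library totals. There 1 member was called under RLE, 1 with no filter, 1 at a minimum of 10 counts, and 2 by DESeq2, beside 8.69%, 4.05%, 12.5% and 17.6% of all genes. With the library number as a replicate block 1 was called in KO blood (Fcgr2b, 1.87, edgeR adjusted p = 0.00903, 10.7% of genes) and 2 over all libraries (8.53%), where the numbers are not known to pair the samples. In the 6 comparisons whose libraries deviated together, the block changed no call of a member. In KO at 12h, lung against blood, 1 member was called with no filter (3.13% of genes) and 1 with the files summed (8.27%). Over all libraries 0 were called with the files summed, 2 by the adjusted p alone and 2 without the 3 doubted libraries, beside 0.031%, 7.86% and 10.7% of all genes. Leaving out each library gave 0 to 1 called members in WT blood, 0 to 2 in WT lung, 0 to 1 in KO blood, 0 to 1 in KO at 12h between tissues and 0 to 2 over all libraries, Fcer1g being added over all libraries without KO lung 0h library 2, KO lung 12h library 1b or WT blood 12h library 1b.

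Directions changed for Fcgr1 in WT lung (−0.29 by library totals, −0.26 to 0.38 with a library left out), in KO blood (0.086 with the block, −2.09 to 2.13) and over all libraries (0.28 with the block, 0.31 without the doubted libraries, −0.52 to 0.20). In KO lung, leaving out the doubted libraries gave 1.75 for Fcgr1, 2.07 for Fcgr2b and −1.08 for Fcgr3, and the block gave 0.13 for Fcgr2b. Fcgr4 there was −0.046 under RLE, −0.11 with no filter, −0.046 by DESeq2, −0.15 in the fit of all groups, −0.33 with the files summed and −0.044 by library totals, and Fcer1g was −0.019 with no filter, −0.063 in the fit of all groups and −0.19 with the files summed. With a library left out, KO lung gave −2.23 to 0.83 for Fcgr1, −1.06 to 1.26 for Fcgr2b, −0.050 to 0.75 for Fcgr3, −0.37 to 0.51 for Fcgr4 and −0.26 to 0.63 for Fcer1g. The cause was not tested.

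Scaling by library totals, tried after seeing the data, moved the median log2 fold change of all genes from −0.154 to −0.605 in WT blood, 0.029 to −0.566 in WT lung and −0.139 to −0.519 in KO blood, and the split of called genes from 1134 higher and 841 lower to 685 and 1471, from 778 and 562 to 409 and 1459, and from 531 and 707 to 304 and 1281. Fcgr2b stayed called in WT blood (1.74) and WT lung (1.92). Counts of called genes differed by more than 1.5 times between tools, as 1975 by edgeR and 3135 by DESeq2 in WT blood, 1340 and 2810 in WT lung and 1238 and 2496 in KO blood. The time differences of the ratios moved by more than the spread of libraries in 5 values, all in KO lung without the doubted libraries, and 97 other values stayed within it. With the files of sample 1 summed, Fcgr3 to Fcgr2b differed by 0.91 in KO lung and Fcgr1 to Fcgr2b by −1.66 in WT blood. Another gene length shifts the level of a ratio but not the difference of a pair of genes. Precision is limited by 3 libraries a group, of which library 1b was the shallowest.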
